A study of Mus musculus with 8 samples.

Results

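Transcription factors of the neural crest and of epithelial to mesenchymal transition were followed in dental papilla cells of 2 Bmp2 genotypes. They were 10 of the 22609 gene symbols in the deposited gene tables, taken by name: Sox9, Sox10, Twist1, Twist2, Snai1, Snai2, Zeb1, Zeb2, Tfap2a and Tfap2b. The tables list the AP-2 genes under their older symbols, Tcfap2a and Tcfap2b. The cells were immortalized mouse dental papilla cells, Bmp2 floxed/floxed (iBmp2fx/fx, in which Bmp2 is intact but flanked by recombination sites) and Bmp2 KO (iBmp2ko/ko). No other allele, treatment or agent is named for the sequenced cells, and no age of the animals. How the cells were immortalized, how the deletion was made and how many clones stand behind each line are not given in the sources used here. Total RNA gave 1 library per genotype at 6, 24, 48 and 72 h of culture, 8 libraries in all. The comparisons below rest on the 6 libraries of 6, 48 and 72 h, 3 per genotype, and the libraries of 24 h are given apart. Culture times therefore stand in for replicates, and no label names separate cultures, so a p-value measures only the spread between these libraries.

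Neural crest cells leave the dorsal neural tube, migrate into the head and form most of the mesenchyme of the tooth, including the dental papilla, from which odontoblasts arise. The factors examined here act in steps of this history. AP-2 proteins (Tfap2a, Tfap2b) and the SoxE proteins Sox9 and Sox10 specify the crest, after which Sox10 stays on in glia and pigment cells and Sox9 in cartilage. Snai1, Snai2, Zeb1 and Zeb2 are zinc finger repressors that bind E-boxes and silence epithelial genes such as E-cadherin, and Twist1 and Twist2 are basic helix-loop-helix factors that hold cells in a mesenchymal state and restrain osteoblast maturation. Several of these genes respond to Bmp signals in embryos.

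The promoters of 4 members are shown because these genes cover the range of the results. Compared within 6, 48 and 72 h, Snai1 and Zeb2 were lower in the iBmp2ko/ko cells and Twist2 was higher. Its paralog Twist1 was not called. Each line gives the 250 bases before the start site, 5′ to 3′ on the gene's strand, from RefSeq sequences of GRCm38.p6, with the place where the same bases occur once in mm9, the build of the counts. Capitals mark the motifs found by a search of both strands for 4 words. These were CAGGTG, which is the E-box bound by Snail and Zeb proteins, the TATA motif written as TATAAA, the box of promoters known as CCAAT and, as the last, GGCGCC. The start site is the base that follows the window. For Snai1, Twist1 and Twist2 it is the first base of the gene model, and for Zeb2 it lies 47 bases before that base. The table holds 3 further Zeb2 windows with starts inside the gene model, which are not shown and in which none of the 4 words was found.
Snai1, chr2:167363445-167363694, plus strand: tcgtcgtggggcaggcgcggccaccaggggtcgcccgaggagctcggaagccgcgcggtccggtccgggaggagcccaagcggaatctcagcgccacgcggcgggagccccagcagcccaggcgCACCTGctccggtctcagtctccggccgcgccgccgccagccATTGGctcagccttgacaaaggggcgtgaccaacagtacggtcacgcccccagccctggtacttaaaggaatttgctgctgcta
Zeb2, chr2:44972963-44973212, minus strand: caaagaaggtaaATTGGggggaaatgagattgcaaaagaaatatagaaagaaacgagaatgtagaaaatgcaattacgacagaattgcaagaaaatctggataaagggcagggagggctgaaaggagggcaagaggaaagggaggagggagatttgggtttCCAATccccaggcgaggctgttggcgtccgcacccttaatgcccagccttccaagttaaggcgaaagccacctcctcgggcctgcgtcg
Twist1, chr12:34642286-34642535, plus strand: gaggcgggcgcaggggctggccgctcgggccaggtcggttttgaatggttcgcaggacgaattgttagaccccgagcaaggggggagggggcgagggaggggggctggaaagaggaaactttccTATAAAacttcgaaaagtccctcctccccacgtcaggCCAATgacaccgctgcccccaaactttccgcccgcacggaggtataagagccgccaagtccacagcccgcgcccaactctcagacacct
Twist2, chr1:93697788-93698037, plus strand: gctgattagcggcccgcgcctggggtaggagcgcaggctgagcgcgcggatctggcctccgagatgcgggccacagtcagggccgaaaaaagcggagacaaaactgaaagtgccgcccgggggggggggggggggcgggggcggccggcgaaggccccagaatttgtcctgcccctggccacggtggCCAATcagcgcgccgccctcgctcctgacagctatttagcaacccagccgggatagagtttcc
In the Snai1 window, CAGGTG stands on the minus strand, so it reads CACCTG, 126 bases before the start site, and CCAAT reads ATTGG 84 bases before it. Of the 32851 promoter windows of the same length in the table, 17.22% hold CAGGTG. The CCAAT box occurs in 33.85% of all windows and in each of the 4 shown, in Zeb2 238 and 89 bases before the start, in Twist1 89 bases and in Twist2 63 bases. TATAAA was found in Twist1 alone among the 4, 126 bases before the start, and in 12.37% of all windows, while GGCGCC was in none of the 4 and in 9.586% of all. The Snai1, Twist2, Twist1 and Zeb2 windows contain 70%, 68.8%, 62.4% and 49.6% G and C. These matches describe letters in these windows and do not show binding. Tfap2a and Tfap2b also have entries in the table, and Sox9, Sox10, Snai2 and Zeb1 were not matched.

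The reads assigned to genes numbered 25890110 to 32415665 per library, and the reads with several positions, which the counting sets aside, made up 41.3 to 49.6% of alignments. Bmp2 itself had 1 read in the iBmp2fx/fx library of 24 h and 0 reads elsewhere, so its counts check no genotype label. The library labelled iBmp2ko/ko 24 h stood apart from its group. Over 10144 genes with at least 100 counts in every library, it differed from the iBmp2fx/fx library of 6 h by a median of 0.060 in log2 CPM (counts scaled to a common library size), against 0.145 for the next closest pair of libraries, the iBmp2fx/fx libraries of 24 and 48 h. It was not identical to that iBmp2fx/fx library of 6 h, from which 25.9% of the genes differed by more than sampling noise, where 5% would do so by counting error alone. Of the 291 genes called between the genotypes over the other times, 4 lay nearer to the iBmp2ko/ko mean in this library, as did 20 in the iBmp2fx/fx library of 24 h. The 7 measurable factors differed from the iBmp2fx/fx 6 h library by a median of 0.055 and by at most 0.21. Of the 7, 5 (Sox9, Snai1, Snai2, Zeb1 and Zeb2) had their closest value in that iBmp2fx/fx 6 h library. What sets this library apart was not tested, and each member's fit over all 8 libraries is given where it changes a call.

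**Figure D1:**
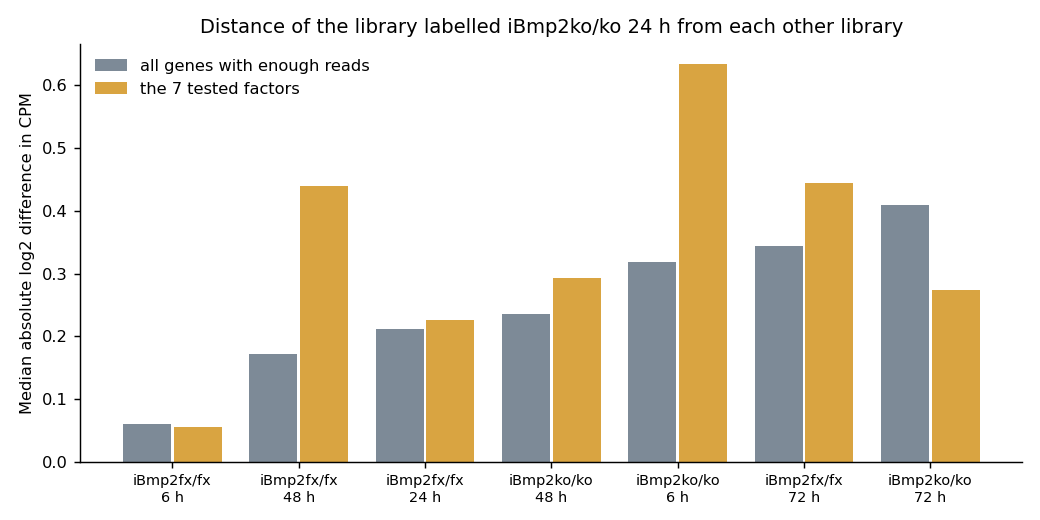
Median absolute log2 difference in CPM between the library labelled iBmp2ko/ko 24 h and each of the other 7 libraries, over 10144 genes (grey bars) and over the 7 tested factors (ochre bars). The shortest bars of both kinds, 0.060 and 0.055, are those of the iBmp2fx/fx library of 6 h.

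The factors fell into 3 tiers of level per length, given as RPKM (CPM per kilobase of merged exons). Twist1, Snai2, Twist2 and Snai1 formed the top tier in the iBmp2fx/fx cells, at 56.3 ± 6.94, 53.3 ± 10.8, 47.2 ± 3.54 and 40.9 ± 10.5 RPKM (mean ± SD, n = 3). Their ranges overlapped from each neighbour in this order to the next. Sox9, Zeb1 and Zeb2 followed at 8.80 ± 2.16, 7.53 ± 1.38 and 6.71 ± 1.69 RPKM, again with overlapping ranges, and no range of this tier reached the tier above. Tfap2a, Sox10 and Tfap2b lay at or near 0.

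The order was another one in the iBmp2ko/ko cells, where Twist2 stood first at 63.6 ± 5.27 RPKM and Twist1 second at 45.9 ± 2.46, with no overlap between them. Snai2 followed at 26.4 ± 8.33 and Snai1 at 20.2 ± 14.8 RPKM, which overlapped, and then came Zeb1 at 7.10 ± 1.57, Sox9 at 5.74 ± 1.16 and Zeb2 at 4.03 ± 1.52.

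**Figure D2:**
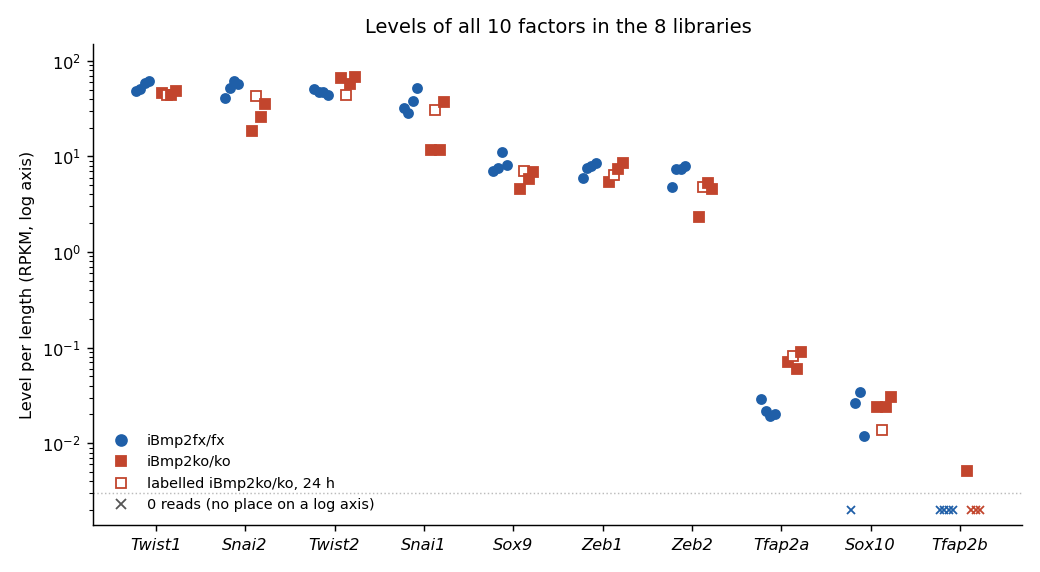
Level per length (RPKM, log axis) of the 10 factors in each of the 8 libraries, ordered by the mean in the iBmp2fx/fx cells; circles are iBmp2fx/fx, filled squares iBmp2ko/ko and the open square the library labelled iBmp2ko/ko 24 h. Crosses under the dotted line mark libraries with 0 reads. Twist1 to Snai1 lie between 11.7 and 67.8 RPKM, Sox9 to Zeb2 between 2.32 and 11.2, and the last 3 factors below 0.1.

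Whether members were called between the genotypes depended on the fit. Compared within 6, 48 and 72 h, Snai1, Snai2, Zeb2 and Sox9 were lower and Twist2 was higher in the iBmp2ko/ko cells than in the iBmp2fx/fx cells. Twist1 and Zeb1 were not called. At 24 h Snai1 and Twist2 went the other way, with log2 ratios of 0.10 and -0.12. With the 24 h libraries included, the comparison within culture times called 0 members. The fit of genotype alone, which counts every change with time as error, called 0 of the 7 tested members once p-values of the edgeR quasi-likelihood test were adjusted over all genes (Benjamini-Hochberg, limit 0.05), where 2.22% of the 13121 genes tested were called. In that fit 3 members, Sox9, Twist2 and Snai2, had an unadjusted p under 0.05, as did 1836 of all genes tested. DESeq2 called 1 member (Snai2) and 873 genes, and limma 0 members and 293 genes. In this edgeR fit Snai2 alone passed the study's own limit for a lower gene, a log2 fold change beyond 1 in size together with p under 0.05, read here as unadjusted although the study also names a Q value, which 4.04% of all genes tested passed in this direction. With limma on log2 RPKM, the scale in the study's methods, Snai1 passed this limit as well (log2 fold change -1.22, adjusted p = 0.29), as it did with limma on log2 CPM, with DESeq2 and without a filter.

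With culture time as a block, edgeR called 4 of the 7 as lower in the iBmp2ko/ko cells, where 11.4% of all genes tested were so called, and 1 of the 7 as higher, where 11.3% were. DESeq2 and limma with the block called the same 5, among 3158 and 3019 genes in all. The median log2 fold change of the 7 members was -0.63 without the block and -0.62 with it, against 0.03 and 0.02 over all genes tested. Over all 8 libraries edgeR called 0 members with the block, along with 40 of the 13053 genes tested, and 0 members and 0 genes without it, with 5 and 3 members and 3242 and 1336 genes at an unadjusted p under 0.05. Sox9 and Snai2 were lower without overlap of the 3 libraries per genotype, as were 10.1% of all genes tested, and Twist2 was higher without overlap, as were 9.92%.

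**Figure D3:**
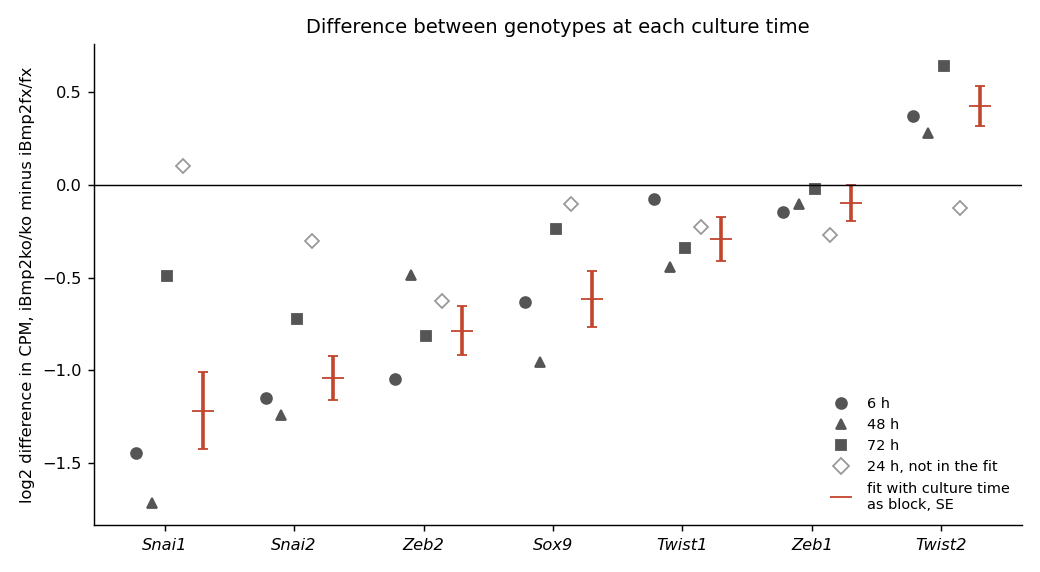
Difference between the iBmp2ko/ko and the iBmp2fx/fx library at each culture time, as log2 of the CPM ratio, for the 7 tested factors ordered by the fitted value; red bars give the edgeR estimate over 6, 48 and 72 h with culture time as a block and its SE. All 3 points of Snai1, Snai2, Zeb2, Sox9, Twist1 and Zeb1 lie below 0 and all 3 of Twist2 above 0, and the open diamonds of 24 h, which were not in the fit, lie at -0.63 to 0.10.

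Snai1 and Snai2 (Snail and Slug), the repressors with which cells begin the transition, had the largest fitted differences between the genotypes among the 7 tested members over the 3 times, though not at 72 h alone, where Zeb2 and Twist2 differed more than Snai1. Snai1 (chr2:167363695-167368314 of mm9, plus strand, 3 exons) stood at 51.9, 62.1 and 85.0 CPM at 6, 48 and 72 h in the iBmp2fx/fx cells and at 19.0, 18.9 and 60.4 CPM in the iBmp2ko/ko cells. The iBmp2ko/ko library of 72 h reached into the iBmp2fx/fx range, so the groups overlapped, but at each of the 3 times the iBmp2ko/ko value was the lower one, 2.72, 3.28 and 1.41 times below. The log2 fold change was -1.04 (SE 0.47, adjusted p = 0.39, edgeR), and with the block -1.22 (SE 0.21, adjusted p = 0.0070). Without the iBmp2ko/ko library of 72 h, the fit without a block gave -1.81 and called Snai1 (edgeR adjusted p = 0.022).

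Snai2 (chr16:14705945-14709488, plus strand, 3 exons), which is also a marker of the migrating crest, was at 83.2, 123.8 and 117.6 CPM in the iBmp2fx/fx cells. In the iBmp2ko/ko cells it was at 37.5, 52.4 and 71.2 CPM, so that all 3 values lay below the lowest iBmp2fx/fx one. The log2 fold change was -1.02 (SE 0.26, adjusted p = 0.13) and -1.04 with the block (SE 0.12, adjusted p = 0.0014, edgeR). DESeq2 called it without a block too (adjusted p = 0.022). The tested genes of its chromosome were shifted by a median of -0.24 on the log2 scale, the largest such shift among the members' chromosomes, and its part in the Snai2 value was not tested. Of the 1982 windows of 50 bases in Snai2 transcripts, the length of a read, 38 also occur in coding transcripts of other genes.

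At 24 h the Snail genes differed less between the libraries. Snai1 was at 46.5 CPM in the iBmp2fx/fx library and 50.0 CPM in the library labelled iBmp2ko/ko, and Snai2 at 106.5 and 86.4 CPM. With the block over 8 libraries the values were -0.89 for Snai1 (adjusted p = 0.15, edgeR) and -0.85 for Snai2 (adjusted p = 0.082). Within the 3 other times the block fit kept both calls when the libraries of any 1 time were left out, with log2 fold changes of -1.58 to -0.98 for Snai1 and -1.20 to -0.96 for Snai2.

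**Figure D4:**
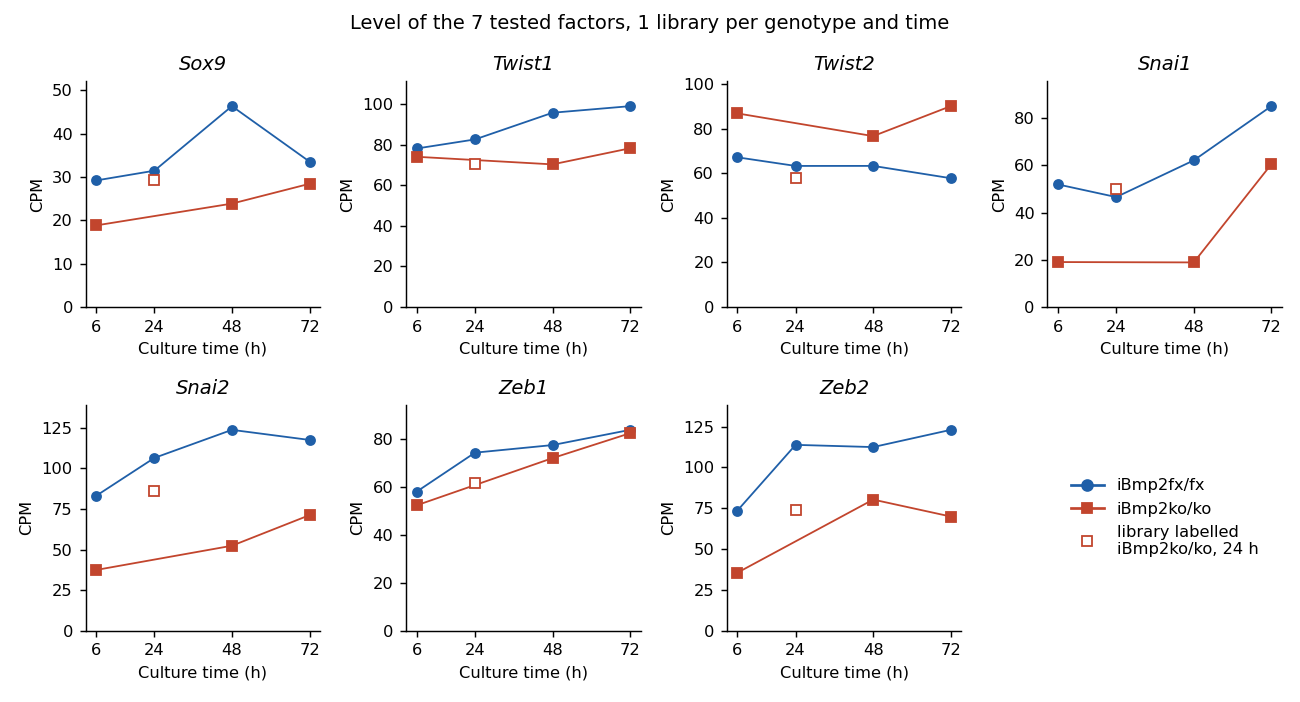
CPM of the 7 tested factors by culture time in h, 1 library per point, for iBmp2fx/fx (blue circles) and iBmp2ko/ko (red squares), with the library labelled iBmp2ko/ko 24 h as an open square outside the line. Snai1 in the iBmp2ko/ko cells stays near 19 CPM at 6 and 48 h and reaches 60.4 at 72 h, and Zeb1 runs nearly the same course in both genotypes.

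Of the Zeb factors, which take over repression of epithelial genes in many mesenchymal cells, Zeb2 differed between the genotypes and Zeb1 was not called in any of the 22 alternative fits. Zeb2 (chr2:44839154-44972915, minus strand, 17 merged exons), the factor mutated in a human neural crest syndrome, was at 73.6, 112.5 and 123.0 CPM in the iBmp2fx/fx cells and 35.6, 80.3 and 70.0 CPM in the iBmp2ko/ko cells. The iBmp2ko/ko value was the lower one at every time, by 2.07, 1.40 and 1.76 times, although the ranges overlapped because the iBmp2fx/fx library of 6 h lay below the iBmp2ko/ko library of 48 h. The log2 fold change was -0.74 (SE 0.33, adjusted p = 0.39, edgeR) and -0.79 with the block (SE 0.13, adjusted p = 0.0062). Without the iBmp2ko/ko library of 6 h, the value without a block was -0.46. Zeb2 was lower at 24 h as well, at 73.8 CPM against 113.9.

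The block fit called Zeb2 with any 1 time left out, at log2 fold changes of -0.95 to -0.67. Over all 8 libraries with the block the value was -0.74 (edgeR adjusted p = 0.071). A lincRNA on the opposite strand, Gm13476, shares 458 exonic bases with Zeb2, which is 2.98% of the Zeb2 exons. The strand setting of the counting is not given in the sources used here, so reads in that stretch cannot be assigned to 1 strand. Gm13476 was counted at 2.20 to 4.38 CPM and was not called (log2 fold change 0.0061, SE 0.33, edgeR adjusted p = 1.00).

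Zeb1 (chromosome 18, 5591858 to 5775465, plus strand, 13 merged exons) was at 58.1, 77.5 and 83.8 CPM in the iBmp2fx/fx cells and at 52.4, 72.0 and 82.4 CPM in the iBmp2ko/ko cells. The ranges overlapped almost fully, and the fitted log2 fold change was -0.096 (SE 0.22, adjusted p = 0.90) without the block and -0.098 (SE 0.098, adjusted p = 0.50) with it. The sign of this value turned to 0.077 without the iBmp2ko/ko library of 6 h and to 0.021 without the iBmp2fx/fx library of 72 h. The tested genes of chromosome 18 were shifted by a median of 0.18 on the log2 scale, opposite in sign to the fitted Zeb1 values. Whether this bears on Zeb1 was not tested. A protein-coding model on the opposite strand, Gm10125, overlaps the start of Zeb1 without sharing exonic bases.

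Twist1 and Twist2 are close relatives that bind E-boxes as dimers with E proteins. Twist2 (chr1:93698038-93744605, plus strand, 2 exons), also called Dermo1, was the 1 member of the 7 tested with a higher level in the iBmp2ko/ko cells, at 86.8, 76.6 and 90.1 CPM against 67.1, 63.3 and 57.8 CPM at 6, 48 and 72 h. The lowest iBmp2ko/ko value lay above the highest iBmp2fx/fx value. The log2 fold change was 0.42 (SE 0.15, adjusted p = 0.27) without the block and 0.42 (SE 0.11, adjusted p = 0.027, edgeR) with it.

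Left without the libraries of 6 h or of 72 h, the block fit no longer called Twist2 (adjusted p = 0.076 and 0.22, edgeR), and without those of 48 h it did (0.037). The 24 h libraries went the other way, at 63.3 CPM in the iBmp2fx/fx library and 58.0 CPM in the library labelled iBmp2ko/ko, and over all 8 libraries with the block the value was 0.29 (adjusted p = 0.24). The tested genes of chromosome 1 were shifted by a median of 0.16 on the log2 scale, and whether this bears on Twist2 was not tested.

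Twist1 (chr12:34642536-34644682, plus strand, 2 exons), the factor whose loss disturbs cranial sutures, was at 78.1, 95.7 and 99.0 CPM in the iBmp2fx/fx cells and at 74.0, 70.3 and 78.2 CPM in the iBmp2ko/ko cells. The highest iBmp2ko/ko value and the lowest iBmp2fx/fx value were nearly the same. The log2 fold change of -0.30 (SE 0.16, adjusted p = 0.48) was not called, nor was that of -0.29 with the block (SE 0.12, adjusted p = 0.11, edgeR). At 24 h the values were 82.6 and 70.6 CPM.

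The share of the Twist pair that Twist2 makes up was set out after these values were seen, and is a description without a test. In the iBmp2fx/fx cells the ratio of Twist2 to Twist1, both per length, was 1.05, 0.93, 0.80 and 0.71 at 6, 24, 48 and 72 h. It stayed at 1.43, 1.33 and 1.40 at 6, 48 and 72 h in the iBmp2ko/ko cells, and was 1.00 in the library labelled iBmp2ko/ko 24 h. Twist2 was thus the more abundant of the pair in each iBmp2ko/ko library of these 3 times, and Twist1 in the iBmp2fx/fx libraries from 24 h on.

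Zeb2 over Zeb1 was 0.80, 0.97, 0.92 and 0.93 at 6, 24, 48 and 72 h in the iBmp2fx/fx cells, and 0.43, 0.70 and 0.54 at 6, 48 and 72 h in the iBmp2ko/ko cells. The genotypes did not overlap in this ratio, which was 0.76 in the library labelled iBmp2ko/ko 24 h, just under the lowest iBmp2fx/fx value. Snai2 over Snai1 overlapped, at 1.10 to 1.83 in the iBmp2fx/fx cells and 0.94 to 2.21 in the iBmp2ko/ko cells, as both genes were lower in the latter. It was 1.38 in the library labelled iBmp2ko/ko 24 h. These ratios too are a description without a test.

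**Figure D5:**
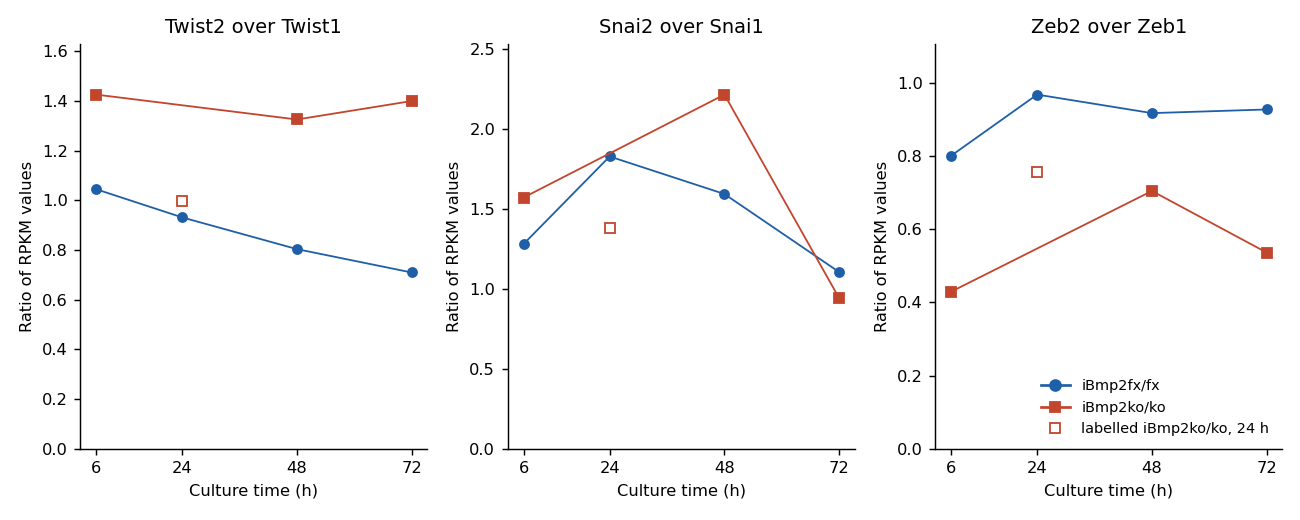
Ratio of the RPKM values of the members of each pair within a library, by culture time in h; blue circles are iBmp2fx/fx, red squares iBmp2ko/ko and the open square the library labelled iBmp2ko/ko 24 h. Twist2 over Twist1 is 1.33 to 1.43 in the iBmp2ko/ko cells at 6, 48 and 72 h and 1.05 or less in the iBmp2fx/fx cells, Zeb2 over Zeb1 is lower in the iBmp2ko/ko cells, and Snai2 over Snai1 overlaps.

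Sox9, the SoxE factor that directs cartilage formation and is also used by the early crest, was measurable, and its relative Sox10 was not. Sox9 (chr11:112643538-112649074, plus strand, 3 exons) was at 29.2, 46.4 and 33.6 CPM in the iBmp2fx/fx cells and at 18.9, 23.9 and 28.5 CPM in the iBmp2ko/ko cells. The highest iBmp2ko/ko value lay just below the lowest iBmp2fx/fx value. The log2 fold change was -0.63 (SE 0.24, adjusted p = 0.31) without the block and -0.62 (SE 0.15, adjusted p = 0.025, edgeR) with it.

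The Sox9 call was lost without the libraries of 6 h (block fit, edgeR adjusted p = 0.066) and without those of 48 h (0.093). The 24 h libraries were at 31.5 and 29.3 CPM, and over all 8 libraries with the block the value was -0.48 (adjusted p = 0.15). The divergent lincRNA BC006965, which starts 248 bases from Sox9 on the opposite strand, had 0 to 5 reads per library.

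Sox10 (chr15:78985343-78994920, minus strand), the factor of Schwann cells and melanocytes, had 0 to 3 reads per library and did not pass the filter on low counts. No library rose above 3 counts, the level used here as the floor, so Sox10 was taken as not detectable in either genotype at this depth. This limit covers counting error only. Tfap2b (chr1:19198995-19228815, plus strand) had a single read in all, in the iBmp2ko/ko library of 6 h.

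Tfap2a (chr13:40811044-40829192, minus strand), an AP-2 factor of the crest and the surface ectoderm, had 3, 2 and 2 reads at 6, 48 and 72 h in the iBmp2fx/fx cells and 7, 6 and 7 reads in the iBmp2ko/ko cells. Over these libraries, 7 and 20 reads gave a ratio of 3.16 between iBmp2ko/ko and iBmp2fx/fx after scaling for depth, with an exact 95% counting interval of 1.28 to 8.85. The 24 h libraries had 2 and 7 reads. The gene did not pass the filter on low counts. In the edgeR fit without a filter it had a log2 fold change of 1.60 (SE 0.63, adjusted p = 0.34), which was not called but lay past the study's limit. Of the 3234 windows of 50 bases in its transcripts, 14 also occur in transcripts of other genes.

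Over culture time, 3 of the 7 members had a rising level at an unadjusted p under 0.05, as did 10.9% of all genes tested, and edgeR called 0 members and 0 of all 13121 genes after adjustment. In this fit of genotype plus the log2 of hours over the 6 libraries, Zeb2 had a slope of 0.25 per doubling of time (SE 0.057, adjusted p = 0.18). Snai2 had a slope of 0.18 (SE 0.047, adjusted p = 0.18) and Zeb1 of 0.15 (SE 0.040, adjusted p = 0.19). The median slope was 0.15 over the 7 members and -0.00097 over all genes tested. Leaving out the iBmp2ko/ko library of 6 h left 0 members at an unadjusted p under 0.05, along with 593 of the 13332 genes then tested. With the other 5 libraries left out in turn, 2 to 4 members and 1271 to 4308 genes were under it. The largest number of genes came without the iBmp2ko/ko library of 48 h, where 4 members and 4308 of 13316 genes were.

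From 6 to 72 h the largest ratio was that of Snai1 in the iBmp2ko/ko cells, 3.17, against 1.64 in the iBmp2fx/fx cells. Zeb2 was 1.67 times as high at 72 h as at 6 h in the iBmp2fx/fx cells and 1.97 times in the iBmp2ko/ko cells, and Snai2 1.41 and 1.90 times. Twist2 had ratios of 0.86 and 1.04. Whether the slope differed between the genotypes was tested as an interaction, for which edgeR called 0 members, with 0 members and 63 of the 13121 genes at an unadjusted p under 0.05. The Snai1 interaction was 0.17 per doubling of time (SE 0.25, adjusted p = 1).

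The wider families and programmes of these factors were taken from lists of genes, and their counts with the block stand beside 11.3% of all genes tested called as higher and 11.4% called as lower. Of 15 paralogs (other SoxE and SoxD, Snail, Scratch, AP-2 and helix-loop-helix genes), 3 passed the filter and 0 were called by edgeR with or without the block. Scx, the tendon factor scleraxis, was at 2.62 to 6.52 CPM in the iBmp2fx/fx cells and 1.94 to 3.11 CPM in the iBmp2ko/ko cells, and Sox8, the third SoxE gene, at 1.86 to 2.23 and 2.01 to 4.32 CPM. The summed level of all 15 was 5.29 to 9.50 CPM over the 6 libraries.

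Among 21 other factors of the crest and of mesenchymal transition, 14 were tested, of which 1 was higher and 1 lower without the block, and 1 higher and 2 lower with it. Prrx2, a homeobox factor of craniofacial mesenchyme, was at 159.1, 157.7 and 134.5 CPM in the iBmp2fx/fx cells and 47.2, 33.9 and 55.0 CPM in the iBmp2ko/ko cells, a log2 fold change of -1.74 (SE 0.21, edgeR adjusted p = 0.013). Nr2f1, an orphan nuclear receptor of the crest, was at 2.88 to 3.63 CPM and 8.02 to 10.3 CPM, a log2 fold change of 1.50 (SE 0.25, adjusted p = 0.031). Msx1, a homeobox factor of the tooth mesenchyme and a target of Bmp signals, was lower with the block (-0.80, edgeR adjusted p = 0.022). In the library labelled iBmp2ko/ko 24 h, Prrx2 was at 134.1 CPM and Nr2f1 at 3.23 CPM, within or near the iBmp2fx/fx ranges.

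All 20 partners, co-repressors and stability regulators were tested, 0 were called without the block, and 2 were higher and 4 lower with it. Jub (Ajuba), a LIM protein that joins Snail repressors to chromatin modifiers, was higher, at 108.5, 139.2 and 173.1 CPM against 41.5, 54.3 and 97.7 CPM (block log2 fold change 1.18, edgeR adjusted p = 0.0021). Usp9x, a deubiquitinase (-0.80, adjusted p = 0.021), Cited2, a co-activator of AP-2 proteins (-0.60, adjusted p = 0.0059), and Kctd15, an inhibitor of AP-2 activity (-1.27, adjusted p = 0.016), were lower. The other 2 called were Hdac2, higher, and Gsk3b, the kinase that marks Snail for degradation, lower. The summed level of the list was 2063 to 2518 CPM in the iBmp2fx/fx cells and 1913 to 2491 CPM in the iBmp2ko/ko cells.

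Of 25 epithelial genes that the repressors silence in other cells, 7 passed the filter, with 1 lower without the block and 2 higher and 2 lower with it. Grhl1, a grainyhead factor of epithelia, was at 13.1, 12.9 and 8.93 CPM in the iBmp2fx/fx cells and 1.15, 1.30 and 1.49 CPM in the iBmp2ko/ko cells (log2 fold change -3.16, SE 0.29, edgeR adjusted p = 0.0064). Cdh3, P-cadherin, was at 2.20, 2.82 and 5.75 CPM and 19.9, 13.5 and 41.8 CPM, a block log2 fold change of 2.76 (adjusted p = 0.00031, edgeR; 0.051 without the block). Inadl (Patj), a tight junction scaffold, was higher (0.87, adjusted p = 0.045) and Krt14, a basal keratin, lower (-1.45, adjusted p = 0.041) with the block, at levels of 3.73 CPM or less. Cdh1, E-cadherin and the classic target of the Snail and Zeb repressors, had at most 5 reads in any library.

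Of 20 mesenchymal genes that rise in the transition, all were tested, 0 were called without the block, and 7 were higher and 3 lower with it. Cdh11, the mesenchymal cadherin, was at 8.66, 11.6 and 17.5 CPM in the iBmp2fx/fx cells and 28.7, 50.3 and 86.2 CPM in the iBmp2ko/ko cells (block log2 fold change 2.05, edgeR adjusted p = 0.00023). The fibrillar collagen gene Col3a1 was higher as well (1.45, adjusted p = 0.0042), as was Postn, periostin (1.38, adjusted p = 0.0027). Vim, Col1a2, Acta2 and Mmp2 were also called as higher, and Itga5 and Lox were among those called as lower. The summed level was 23116 to 29392 CPM in the iBmp2fx/fx cells and 28456 to 31742 CPM in the iBmp2ko/ko cells.

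Of 17 cartilage genes driven by Sox9, 9 were tested, 1 was higher without the block, and 1 was higher and 1 lower with it. Col11a1, a minor collagen of cartilage fibrils, was at 0.062 to 0.28 CPM in the iBmp2fx/fx cells and 1.28 to 2.52 CPM in the iBmp2ko/ko cells (log2 fold change 3.62, SE 0.60, edgeR adjusted p = 0.029). It had fewer than 10 reads in each of these iBmp2fx/fx libraries and passed the filter through the iBmp2ko/ko libraries, so the size of this fold is uncertain. Col2a1, the main cartilage collagen, was lower with the block (-1.53, adjusted p = 0.023), at 2.62 CPM or less in every one of the 6 libraries. None of the 6 tested of the 17 glial and melanocyte genes driven by Sox10 was called by edgeR with or without the block. Egr2 was at 8.50 to 24.5 CPM in the iBmp2fx/fx cells and 7.52 to 9.995 CPM in the iBmp2ko/ko cells, and Mitf at 7.13 to 9.57 and 5.53 to 13.9 CPM.

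Over these 7 lists together, 4 of the 78 genes tested were called without the block, namely Prrx2, Nr2f1, Grhl1 and Col11a1, where 2.22% of all genes tested were. Where every library had to hold 10 counts, 3 of 72 were called, and 145 of all 12159 genes then tested. Without the iBmp2fx/fx or the iBmp2ko/ko library of 6 h the count in the lists was 1, with 88 and 85 of 13332 genes called. Without the iBmp2fx/fx or the iBmp2ko/ko library of 48 h the count in the lists was 0, with 14 of 13303 and 9 of 13316 genes called. Over all 8 libraries it was also 0, with or without the block, and the 24 h libraries went the other way for most of the genes named from the lists with a call, namely Prrx2, Msx1, Jub, Grhl1, Cdh3, Krt14, Inadl, Cdh11, Col3a1, Postn and Col2a1. Grhl1, for example, was at 5.29 CPM in iBmp2fx/fx and 14.97 CPM in the library labelled iBmp2ko/ko.

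Markers of the labelled cell type were present in part. Of 11 markers of dental papilla mesenchyme, 7 were tested, and Runx2, Dlx2, Lhx6, Dlx1, Msx1, Msx2 and Pax9 were detected in all 8 libraries, while Barx1, Lhx8 and Dlx6 had at most 1 read and Dlx5 stood at 0.92 CPM or less. With the block, Dlx2, Dlx1, Msx1 and Runx2 were lower in the iBmp2ko/ko cells, as were 11.4% of all genes tested. Dlx5 was at 0.12 to 0.19 CPM in the iBmp2fx/fx cells and 0.16 to 0.92 CPM in the iBmp2ko/ko cells at 6, 48 and 72 h. Pax9 was at 1.91 to 2.26 CPM in the iBmp2fx/fx cells and 2.62 to 3.53 CPM in the iBmp2ko/ko cells and was not called. The summed level of the list, most of it Runx2, Dlx2 and Lhx6, was 168.8 to 209.8 CPM in the iBmp2fx/fx cells and 75.6 to 139.6 CPM in the iBmp2ko/ko cells. Dlx2, a homeobox factor of the tooth mesenchyme, was at 48.9, 41.2 and 56.7 CPM against 3.60, 3.76 and 18.4 CPM. Whether it varied with Snai1, Snai2, Zeb2 or Sox9 was not tested. Fewer cells of a kind and less RNA per cell cannot be told apart in such bulk libraries.

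Markers of other cell types were low, and several moved with genotype. The summed level of 9 epithelial markers was 1.08 to 3.10 CPM in the iBmp2fx/fx cells and 0.66 to 1.64 CPM in the iBmp2ko/ko cells, with 1 of 9 tested and lower with the block. For 6 leukocyte markers it was 4.32 to 14.3 and 2.81 to 3.53 CPM, with the 2 tested (Csf1r and Cd68) lower with the block and Ptprc, the defining marker, at 2 reads or fewer. For 5 muscle markers it was 7.55 to 13.4 and 3.59 to 5.20 CPM, most of it Des, which was lower with the block (-1.35, edgeR adjusted p = 0.0048). For 6 endothelial markers it was 1.93 to 3.32 and 1.61 to 3.63 CPM, with Tek higher and Kdr lower with the block. The 7 markers of Schwann cells and melanocytes summed to 1.31 to 1.63 and 1.69 to 3.01 CPM, and the 1 that was tested was not called. The 6 neuronal markers summed to 0.413 CPM or less, and 0 of them passed the filter, so none could be called. The part of these markers in the members' differences was not tested.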

How the data were processed

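Total RNA of iBmp2fx/fx and iBmp2ko/ko cells was sequenced from Illumina TruSeq libraries. The labels state unpaired reads of 50 bases where the methods name paired reads, and the design text gives 8 h in place of 6 h. The methods list harvests at 6, 48 and 72 h and not at 24 h. The authors aligned the reads to mm9 (CASAVA 1.8.2 and TopHat2 2.0.8b per the submitters' processing notes) and counted them with HTSeq. The annotation and strand setting are not given in the sources used here. The deposited values are whole-number counts per gene and per lncRNA symbol, unnormalized. The 5 HTSeq summary counters were left out.

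Members and lists were chosen with earlier results of these data known. All members were named; from each other list, up to 4 called genes by size of change were named or, where none was called, the 2 most abundant. A further gene that this rule names is not reported here. Gm13476, BC006965, Cdh1, Vim, Col1a2, Acta2, Mmp2, Itga5, Lox, Hdac2 and Gsk3b were added after their values were seen. Counts were tested in R 4.3.3 with edgeR 4.0.16 (TMM, filter of 10 counts and 15 in total, quasi-likelihood test of genotype over 6 libraries, Benjamini-Hochberg adjustment over all genes tested). Time was tested on log2 hours. The lncRNAs were scaled with the library sizes of the gene table. The deviations of libraries from their genotype means were correlated within a culture time (r over 13121 genes of 0.713, 0.536 and 0.840 at 6, 48 and 72 h), so the culture time pairs the libraries and the block is given beside the results. The replicate number of a library is the place of its culture time. CPM used TMM-scaled library sizes and RPKM the merged exons of GENCODE M1 on mm9, which matched 95.7% of symbols. Depth per library is given above, and floors of 3 counts and intervals cover counting error only.

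The alternatives were other sets of libraries, the block, DESeq2 1.42.0, limma 3.58.1 on log2 CPM (offset 0.5) and log2 RPKM (offset 0.1), RLE or total scaling, other filters, hours in place of log2 hours, and each library left out. DESeq2 and limma with the block, and the block without each time, were chosen after seeing the data. The fits were tested on simulated counts with known fold changes. Figures were drawn with Python 3.11.15 and matplotlib 3.10.9.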

Additional observations from a re-analysis of the deposited data

How the results depend on the processing

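edgeR called 0 members without a block and 5 with culture time as a replicate block over 6 libraries, and DESeq2 and limma with this block also called 5. With the block it was 3 without the libraries of 6 h and 4 without those of 48 h or of 72 h, with 1835, 2567 and 1557 genes called in all. DESeq2 without a block called 1 member, and edgeR with each library left out in turn called 0 to 1. No alternative called a member for the culture time trend or the interaction. The block changed no call of Twist1 or Zeb1. Of 22 alternatives per member, all kept the direction of Snai1, Snai2, Sox9, Twist1, Twist2 and Zeb2, and 20 that of Zeb1, whose log2 fold change was 0.077 without the iBmp2ko/ko library of 6 h and 0.021 without the iBmp2fx/fx library of 72 h. All alternatives refit the same libraries or part of them, so a kept direction is not independent support. With 1 library left out, the log2 fold changes ranged from -1.81 to -0.74 for Snai1, -1.27 to -0.81 for Snai2, -0.78 to -0.43 for Sox9, -0.42 to -0.23 for Twist1, 0.37 to 0.48 for Twist2, -0.25 to 0.077 for Zeb1 and -0.99 to -0.46 for Zeb2.

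Of the list genes, 4 were called, against 25 with culture time as a replicate block over 6 libraries, 27 with DESeq2 or limma and that block, and 20, 23 and 13 with the block and without the libraries of 6, 48 and 72 h. The count was 0 over all 8 libraries, with or without the block, 8 over 7 libraries without the library labelled iBmp2ko/ko 24 h, 9 with DESeq2, 7 without a filter, and 0 to 4 with each library left out. Of all 13121 genes tested, 291 were called without and 2981 with the block and 873 with DESeq2. Over 7 libraries 483 of 13208 genes were called, and without a filter 336 of 18126. With 1 library left out, 9 to 383 of the 13303 to 13373 genes then tested were called. The causes were not tested. Sox10, Tfap2a and Tfap2b are limited by depth.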
